A study of Homo sapiens with 5 samples.

Results

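The genes described here encode the soluble factors of cytosolic translation: the initiation factors (EIF symbols), the elongation factors and the enzymes that modify them (EEF symbols), the release factors ETF1, GSPT1 and GSPT2, and the poly(A)-binding proteins PABPC1 and PABPC4. They were chosen by gene symbol from the probe annotation, with EEF1E1 and pseudogenes left out, which gave 65 of 9268 named genes and 92 of 14747 probes. All RNA came from LX-2, an immortalized human line of hepatic stellate cells, which deposit collagen in the fibrotic liver. Every sample, control samples included, was from cells transfected with 50 pmol of a biotin-labelled miR-25-3p duplex and collected at 24 h. The fraction retained on streptavidin beads (PD miR-25, 3 arrays, called pull-down here) was compared on Illumina HT-12 arrays with whole cell lysate (Control, 2 arrays, called lysate), to find mRNAs bound by the miRNA. No pull-down with another duplex or with bare beads was analysed here, so capture by miR-25-3p and other retention on the beads cannot be told apart.

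In initiation, eIF2 brings the initiator tRNA to the small ribosomal subunit, eIF1 and eIF1A guide the choice of start codon, and eIF3 is the large scaffold that joins the subunit to the mRNA. The eIF4 factors recognize the cap and unwind the leader of the mRNA, and poly(A)-binding protein links its tail to the cap complex. eEF1A then delivers each aminoacyl-tRNA, the eEF1B complex recharges eEF1A with GTP, eEF2 moves the ribosome along, and eRF1 (ETF1) with eRF3 (GSPT1 or GSPT2) ends the chain. A miRNA finds its targets mainly through bases 2 to 8, its seed. In the paper the biotin-labelled strand has a further AG at the 3′ end of the mature miRNA. The mature miRNA is shown because all pull-down arrays rest on it, with the seed in capitals (RefSeq, GRCh38.p14, chr7:100093571-100093592, minus strand).
hsa-miR-25-3p: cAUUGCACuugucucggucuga

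Translation factors were changed in both directions, and members of the same complex often differed. EEF1B2, the exchange factor subunit of eEF1B, and EIF1B, a paralogue of eIF1, were 2.31- and 2.53-fold higher in the pull-down. EIF4B, a cofactor of the eIF4A helicase, EIF2AK4, the kinase GCN2, and EIF3A, the largest subunit of eIF3, were 2.42-, 2.38- and 2.06-fold lower. EEF1D, which sits in the same eEF1B complex as EEF1B2, was 1.98-fold lower. All differences are pull-down minus lysate on the deposited normalized scale, which is log2 or log2-like, with groups taken from the sample titles. ADAM17 and FKBP14, genes that the study took forward as bound, averaged 8.94 and 11.39 in the pull-down and 9.59 and 13.42 in the lysate. For these 2 genes the sign is opposite to the study's own reading of enrichment. The paper left out a control array for low signal, and the titles likewise give 3 pull-down and 2 control arrays. The legend of its volcano plot selects on a negative fold change, its methods on a positive one. Whether the titles of the groups were exchanged cannot be told from the values alone, and if they were, every higher and lower given here would turn.

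By limma, with Benjamini-Hochberg adjustment over all 14747 probes and the brightest probe for each gene, 15 of the 65 factor genes passed an adjusted p under 0.05. This is 23.1% of them, where 13.8% of all named genes passed. Higher in the pull-down were 5 genes, against a background of 7.1%, and lower were 10, against 6.72%. The factor genes were brighter than most, with a median value of 10.77 against 9.19 for all named genes, and bright genes were called more often. Among named genes at or above that brightness 21.2% were called, 11.2% higher and 10.1% lower. Of the 49 factor genes there 14 were called (28.6%), 4 higher and 10 lower. The median log2 fold change of the factors was 0.05, beside 0.04 for all named genes. The arrays of the groups did not overlap for 38 factor genes, 20 higher and 18 lower, which is to be read against 49.2% of all named genes. At least 2-fold and called were 2 genes higher (background 2.41%) and 3 lower (background 3.02%).

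**Figure D1:**
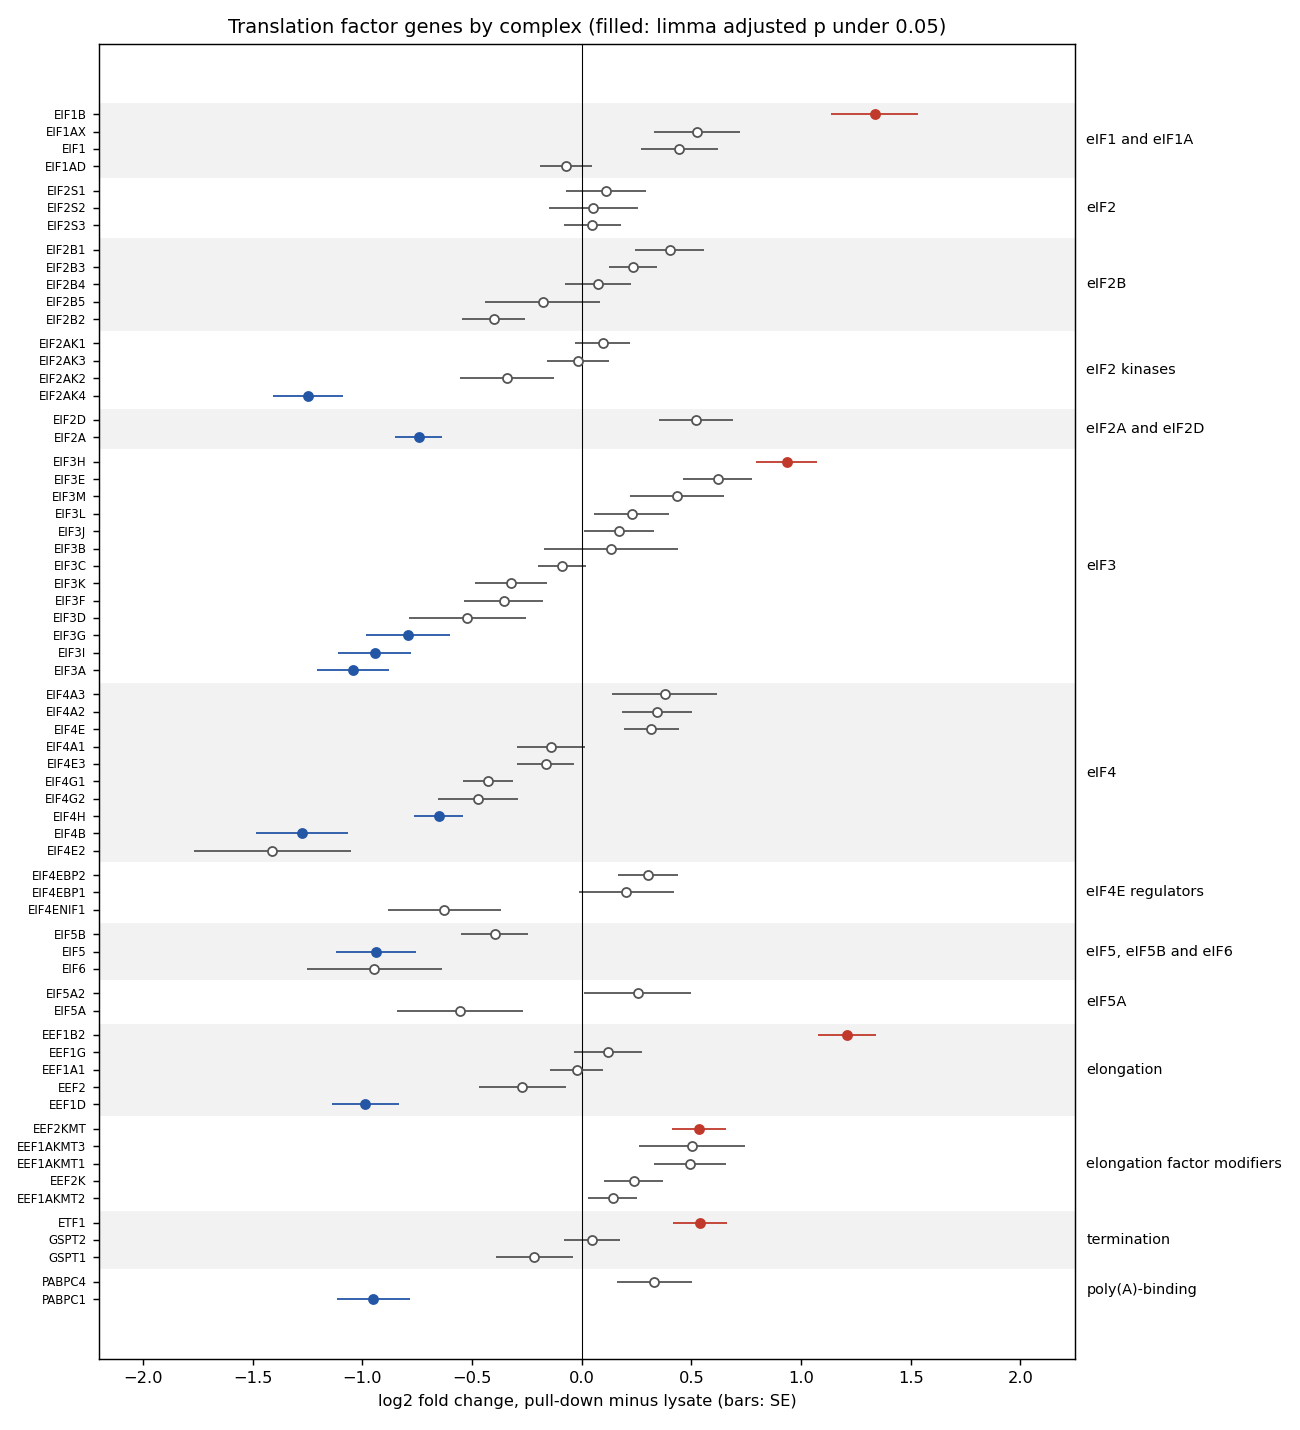
Log2 fold change of 64 factor genes by complex (x axis, pull-down minus lysate, with the SE of the limma fit; 1 row for each gene; filled symbols passed an adjusted p under 0.05, red higher and blue lower). eIF3 and the elongation factors have called genes on both sides of 0, while the eIF2 subunits lie between 0.05 and 0.11.

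The calls depended on which arrays entered the fit. Without pull-down replicate 1, 13 of the 15 genes were still called, and without pull-down replicate 3, 7 of them (EEF1B2, EIF1B, EIF2AK4, EIF3I, EIF4B, EEF1D and PABPC1). Without pull-down replicate 2 only EEF1B2 and EIF3H were called by limma, and without lysate replicate 1 or lysate replicate 2 none were, with 20 and 25 of the 65 genes at an unadjusted p under 0.05. The lowest adjusted p of any factor was then 0.0794 and 0.0544. In these last fits 1 lysate array was left, the pull-down arrays alone gave the spread, and few probes of any kind passed. All 15 genes kept their direction in each of these fits. This was fixed in advance, since their groups did not overlap on any array. Over all probes the calls fell likewise: 14.7% of the 14747 probes were called with all arrays, 91 probes without lysate replicate 2 and 0 without lysate replicate 1.

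**Figure D2:**
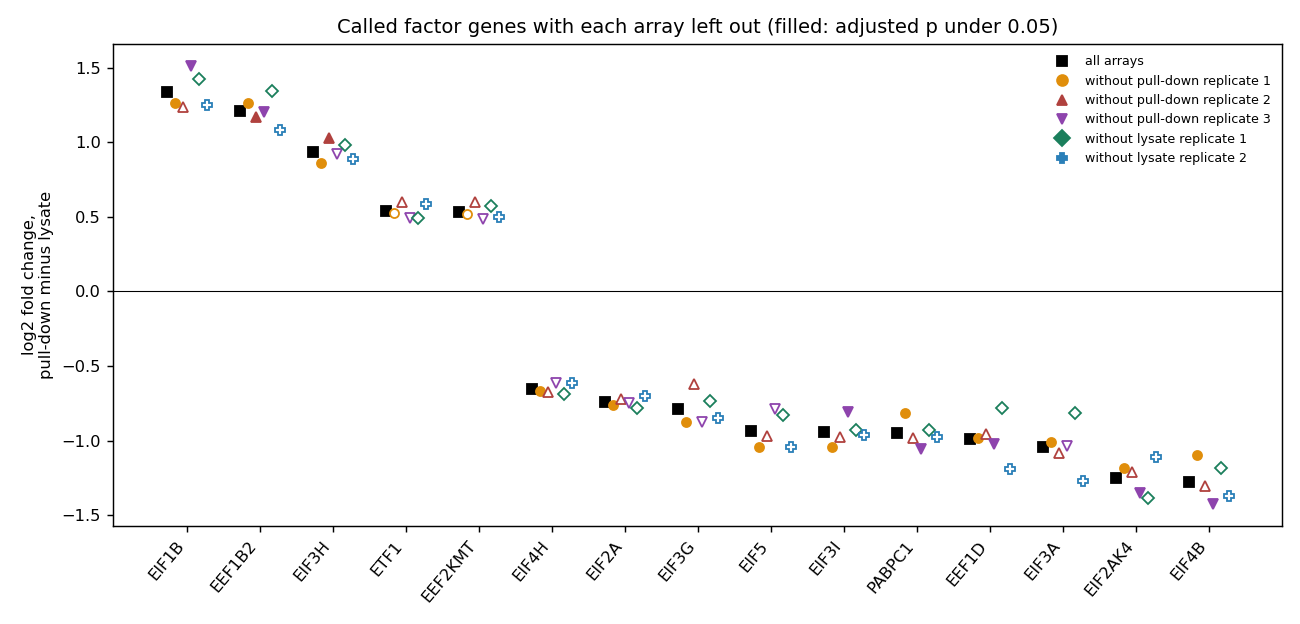
Log2 fold change of the 15 called factor genes with all 5 arrays and with each array left out (y axis, pull-down minus lysate; symbols give the fit, filled where the adjusted p was under 0.05). No gene crosses 0, which was fixed in advance because the groups do not overlap for any of these genes. Fits without a lysate array took their spread from the pull-down arrays alone.

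**Figure D3:**
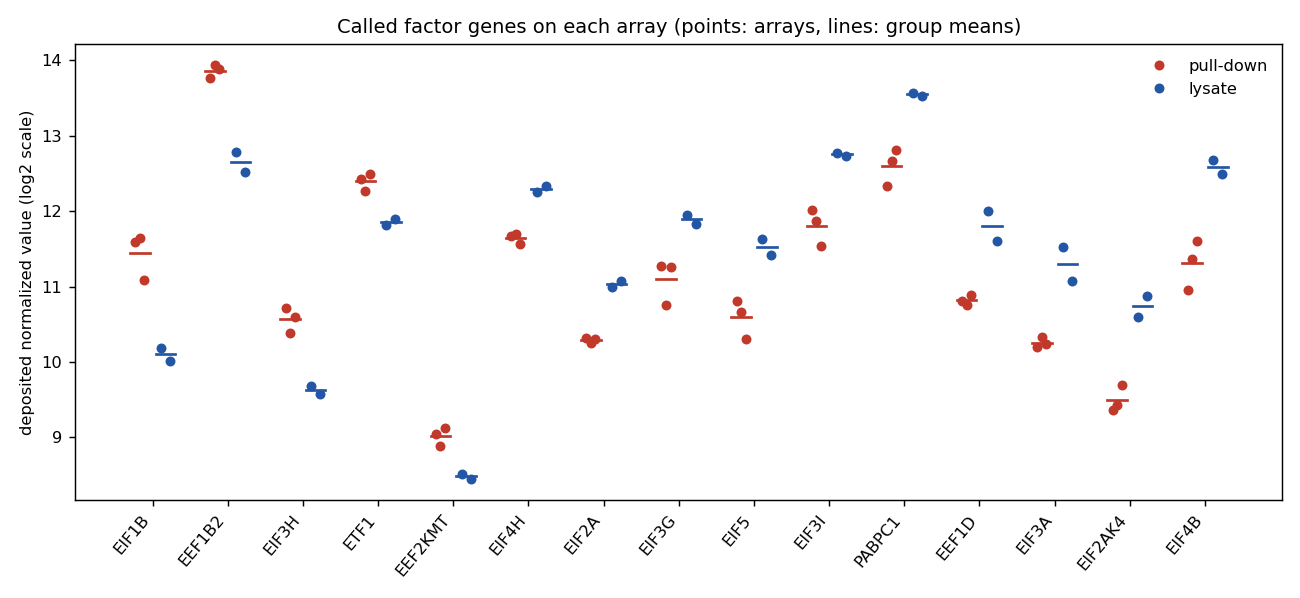
Deposited normalized values of the 15 called factor genes on each array (y axis, log2 scale; red points pull-down, blue points lysate, lines group means). The groups are separated for each gene, and the means lie farthest apart for EIF1B, EIF4B, EIF2AK4 and EEF1B2.

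Many mRNAs of the translation apparatus begin with a C followed by a run of pyrimidines, the 5′ terminal oligopyrimidine (TOP) tract, through which mTOR signaling controls their translation. Of 10 factor genes known for such mRNAs, EEF1B2 and EIF3H were higher in the pull-down, and EIF4B, EEF1D and PABPC1 were lower. Their median log2 fold change was -0.15, beside 0.05 for the other 55 factors, some of which also open with such a run (below). Ribosomal protein genes, the best-known TOP class, had 29 higher and 4 lower of 75 (44.0% called), with a median of 0.38. Over all named genes 7.1% were higher and 6.72% lower, and among those at or above the median brightness 11.2% and 10.1%. Ribosomal protein genes were brighter still, with a median of 13.95 in the pull-down. The known TOP members among the factors were thus found on both sides of 0, and 5 of 10 were not called: EEF1A1, EEF1G, EEF2, EIF3E and EIF3F.

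Start regions show the tract in members that differed in the pull-down and in members that did not. RefSeq windows (GRCh38.p14) were matched for 50 of the 64 factor genes given by value. At the annotated start, on the sense strand, 11 of these 50 (22.0%) had a C opening a run of at least 5 pyrimidines, beside 42 of 64 ribosomal protein genes (65.6%) and 4.07% of 35116 start regions in all. Among matched genes this held for 0 of 3 called higher, 2 of 6 called lower and 4 of 6 of the known TOP members. The rest of the 11 were outside the known TOP members: EIF2A, EIF2D, EIF2S3, EIF3D, EIF3K, EIF3M and EIF4A2. The other factors set beside the known TOP members above are therefore not a group without the tract. EEF1B2 is a known TOP gene without the run in this window, so the annotated start and the known class differ there. Each line below gives 20 bases before and 10 from the annotated start, with the pyrimidine run that opens with C at the start in capitals. EIF4B and EIF2A were lower in the pull-down, EEF1A1, EEF2 and EIF3F were not called, and EEF1B2 and EIF1B were higher. Their places are chr12:53006436-53006465 (plus strand), chr3:150546767-150546796 (plus), chr6:73521023-73521052 (minus), chr19:3985454-3985483 (minus), chr11:7987317-7987346 (plus), chr2:206159589-206159618 (plus) and chr3:40309687-40309716 (plus), in that order.
EIF4B: cgtgattgcctcatccgggtCTTTTgcgtt
EIF2A: aactctcacccgagcggtttCTCTTTCCgg
EEF1A1: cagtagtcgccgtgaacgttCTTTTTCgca
EEF2: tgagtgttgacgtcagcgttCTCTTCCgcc
EIF3F: gtcatttccgcttccgcctcCTTCTTTCTC
EEF1B2: gttccgccggaagtggccccagcctcgagg
EIF1B: ctccatcggccattttgtgcgagaagccgc

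The scanning factors eIF1 and eIF1A had positive differences, of which only that of EIF1B was called. EIF1B measured 11.59, 11.64 and 11.09 in pull-down replicates 1 to 3, and 10.19 and 10.01 in lysate replicates 1 and 2 (all values follow this order). Every pull-down array was above both lysate arrays, with a log2 fold change of 1.34 (SE 0.20, limma adjusted p = 0.0167). EIF1, which encodes eIF1 itself, measured 13.49, 13.08 and 13.00 in the pull-down and 12.79 and 12.70 in the lysate, also without overlap, but did not pass (log2 fold change 0.44, limma adjusted p = 0.15). The paralogues therefore differed by 0.89 on the log2 scale (SE 0.20), with an exact two-sided permutation p = 0.1. That is the smallest p that 3 arrays against 2 can give, and it was 0.167 after adjustment over the 5 paralogue pairs compared. EIF1AX, the X-linked gene of eIF1A, gave 0.53 (limma adjusted p = 0.13) and 0.63 by its other probe. Its near-identical Y-linked copy was counted among the 65 genes and is not given by value, and probes may read both. EIF1AD, an eIF1A domain protein, measured -0.07. EIF1B was called without pull-down replicate 1 or 3 and lost without any other array (adjusted p up to 0.0952).

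The eIF2 complex differed little between the groups. Its subunit genes EIF2S1, EIF2S2 and EIF2S3 (alpha, beta and gamma) had log2 fold changes of 0.11, 0.05 and 0.05, with limma adjusted p-values of 0.718, 0.882 and 0.828. EIF2S3 measured 10.18, 10.37 and 10.40 in the pull-down and 10.36 and 10.18 in the lysate, so the groups overlapped, as they did for EIF2S1 and EIF2S2. Without lysate replicate 1 the median of the 3 genes was 0.28, and without lysate replicate 2 it was -0.06. For eIF2B, the exchange factor that reloads eIF2 with GTP, 0 of 5 subunit genes were called by limma and 2 had an unadjusted p under 0.05. These were EIF2B1, the alpha subunit, at 0.40 (limma adjusted p = 0.15) and EIF2B2, the beta subunit, at -0.40 (limma adjusted p = 0.118), opposite in sign within 1 complex. EIF2B3, EIF2B4 and EIF2B5 measured 0.23, 0.07 and -0.18.

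Of the 4 kinases that phosphorylate eIF2 alpha under stress, EIF2AK4 alone passed. Beside 13.8% of all named genes and 21.2% of the brighter ones, 1 call among 4 genes does not set the kinases apart as a group. EIF2AK4, or GCN2, senses uncharged tRNA, and measured 9.36, 9.43 and 9.69 in the pull-down and 10.60 and 10.88 in the lysate. No pull-down array reached a lysate array, and the log2 fold change was -1.25 (SE 0.16, limma adjusted p = 0.0128). EIF2AK2, the kinase PKR that double-stranded RNA activates, measured 11.35, 11.82 and 11.43 against 12.12 and 11.63, with overlap and a difference of -0.34 (limma adjusted p = 0.339). EIF2AK1 (HRI) and EIF2AK3 (PERK) measured 0.10 and -0.02, the former -0.03 after cyclic loess. EIF2AK4 was called without pull-down replicate 1 or 3 and not without any other array (adjusted p up to 0.0794).

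EIF2A and EIF2D, which can bring initiator tRNA to the ribosome without eIF2, had opposite signs. EIF2A measured 10.32, 10.25 and 10.30 in the pull-down and 10.99 and 11.07 in the lysate, with SDs of 0.04 and 0.06. The 1.67-fold difference (-0.74 on the log2 scale, SE 0.11) had a limma adjusted p of 0.0158, and was called without pull-down replicate 1 but not without any other array (adjusted p up to 0.0952). EIF2D measured 9.50, 9.17 and 9.14 against 8.60 and 8.90, without overlap but short of the threshold (log2 fold change 0.52, limma adjusted p = 0.0965).

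eIF3 had calls in both directions. Of 13 subunit genes measured, 1 was higher and 3 were lower in the pull-down, with log2 fold changes from -1.04 to 0.93. Called were thus 30.8%, beside 13.8% of all named genes and 21.2% of the brighter ones. Of those brighter genes 11.2% were higher and 10.1% lower. EIF3H, a subunit with an MPN domain, measured 10.72, 10.38 and 10.60 in the pull-down and 9.68 and 9.58 in the lysate. The groups were apart by 0.93 (SE 0.14, limma adjusted p = 0.0169). EIF3E, another subunit of the core, measured 12.36, 12.74 and 12.51 against 11.80 and 12.03, also without overlap, and just missed the threshold (log2 fold change 0.62, limma adjusted p = 0.0532). EIF3M, which forms a module with EIF3F and EIF3H, gave 0.43 (limma adjusted p = 0.228) and 0.40 by its other probe. Without pull-down replicate 1, EIF3E was called as well.

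The lower eIF3 genes were EIF3A, EIF3I and EIF3G. EIF3A, the scaffold on which the complex is built, measured 10.20, 10.33 and 10.24 in the pull-down and 11.53 and 11.08 in the lysate. The pull-down arrays were close together (SD 0.07) and the lysate arrays less so (SD 0.32), with a log2 fold change of -1.04 (SE 0.16, limma adjusted p = 0.0181). EIF3I, a WD-repeat subunit, measured 12.01, 11.87 and 11.54 against 12.77 and 12.73 (log2 fold change -0.94, SE 0.16, limma adjusted p = 0.0219). EIF3G, an RNA-binding subunit, measured 11.27, 10.76 and 11.26 against 11.95 and 11.83 (log2 fold change -0.79, SE 0.19, limma adjusted p = 0.0471). EIF3G and EIF3I, with EIF3B, form a module beside the mRNA channel. EIF3B was not called, and its probes differed in sign: the brightest gave 0.13, where pull-down replicate 1 stood at 12.50 and the other 2 at 11.58, and the other probes both gave -0.40 (limma adjusted p = 0.0665 and 0.0864).

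By position in the complex, the 8 subunits of the octameric core (EIF3A, C, E, F, H, K, L and M) had a median log2 fold change of 0.07, with 1 higher and 1 lower. The 5 subunits around it (EIF3B, D, G, I and J) had a median of -0.52, with 0 higher and 2 lower, and this difference was not tested. Over all named genes 7.1% were higher and 6.72% lower, and 11.2% and 10.1% of the brighter ones. With 8 and 5 genes such counts cannot tell the positions apart. EIF3D, which can bind the cap, measured -0.52 (limma adjusted p = 0.245), EIF3F -0.36, EIF3K -0.32 and EIF3L 0.23. EIF3C was dim at 7.90 and gave -0.09, and its probe may also read the near-identical EIF3CL. The median of eIF3 as a whole was -0.09, and it was -0.22 with the mean of each gene's probes and -0.17 without pull-down replicate 1, where EIF3B changes sign. EIF3H was called without pull-down replicate 1 or 2, EIF3I without replicate 1 or 3, and EIF3A and EIF3G without replicate 1 alone (adjusted p up to 0.233 among these). With the trended robust prior EIF3G was at 0.0518.

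The eIF4 factors had 2 called genes of 10, both lower, and 7 of 10 with a negative difference. Among all named genes 13.8% were called, 6.72% lower, and 4199 of 9268 had a negative difference. Among the brighter named genes 21.2% were called, 10.1% lower, so the number of eIF4 calls does not set these factors apart. EIF4B, which stimulates eIF4A, measured 10.96, 11.37 and 11.61 in the pull-down and 12.68 and 12.49 in the lysate. Every pull-down array lay below both lysate arrays, and the log2 fold change was -1.28 (SE 0.21, limma adjusted p = 0.0197). EIF4H, a smaller cofactor of the same helicase, measured 11.67, 11.69 and 11.56 against 12.25 and 12.33 (log2 fold change -0.65, SE 0.11, limma adjusted p = 0.021), and the other probe gave -0.66 (limma adjusted p = 0.0225). The cofactors were thus both lower, while the helicase genes themselves were not called: EIF4A1 measured -0.14 and EIF4A2 0.34 (limma adjusted p = 0.585 and 0.204). EIF4A1 gave 0.39 by its other probe. EIF4A3, the helicase of the exon junction complex, measured 0.38 (limma adjusted p = 0.339).

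Cap-binding and scaffold genes did not pass by the brightest probe, although single probes did. EIF4E, the cap-binding protein, measured 9.60, 9.43 and 9.35 in the pull-down and 9.11 and 9.18 in the lysate, with no overlap and a small difference of 0.32 (limma adjusted p = 0.146). EIF4E2, a relative that represses translation, had the largest difference of all factors, -1.41, but its lysate arrays were far apart. It measured 11.16, 11.18 and 10.45 against 12.82 and 11.86 (SE 0.36, limma adjusted p = 0.0525). It was called after quantile normalization, after cyclic loess, without dim probes and with a trended robust prior, with adjusted p-values of 0.0472, 0.0381, 0.0271 and 0.0258. EIF4G1, the scaffold that joins cap-binding protein, helicase and eIF3, gave -0.43 by the brightest probe (limma adjusted p = 0.0604) and -0.83 by the other, of nearly equal brightness (limma adjusted p = 0.0139). EIF4G2, a scaffold that lacks the cap-binding protein's site, gave -0.47, -0.65 and -1.01 by its 3 probes, of which the dimmest was called (limma adjusted p = 0.0368). EIF4E3 measured -0.16.

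Regulators of eIF4E were not called (0 of 3 by limma, also 0 at an unadjusted p under 0.05). EIF4EBP1 and EIF4EBP2, the repressors that mTOR phosphorylates, measured 0.20 and 0.30 (limma adjusted p = 0.568 and 0.2), and EIF4ENIF1, the transporter 4E-T, -0.63 (limma adjusted p = 0.164). EIF4B was called without pull-down replicate 1 or 3 and EIF4H without replicate 1 alone (adjusted p up to 0.126 and 0.118). With the trended robust prior EIF4H was at 0.0524.

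The factors of subunit joining were all negative, as were 4199 of all 9268 named genes. Of the 3 genes 1 was called (33.3%, beside 13.8% of all named genes). EIF5, the GTPase activator of eIF2, measured 10.81, 10.66 and 10.30 in the pull-down and 11.63 and 11.42 in the lysate. The groups did not overlap, with a log2 fold change of -0.94 (SE 0.18, limma adjusted p = 0.0279). The call of EIF5 held when pull-down replicate 1 was left out and was lost with each other array (adjusted p up to 0.17). EIF6, which keeps the large subunit from joining early, had as large a difference, -0.95, but lysate values of 12.96 and 12.06 lay far apart (limma adjusted p = 0.0964). EIF5B, the joining GTPase, measured -0.40 (limma adjusted p = 0.143). The median of the 3 genes was -0.94, and -0.56 without lysate replicate 1.

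EIF5A, which carries hypusine and eases the making of difficult peptide bonds, measured 11.98, 12.69 and 12.83 in the pull-down and 13.26 and 12.85 in the lysate. The groups were separated by only 0.02 between the nearest arrays, and the difference of -0.56 was not called (limma adjusted p = 0.249). Its paralogue EIF5A2 measured 0.26 (limma adjusted p = 0.524). The pair differed by 0.81 (SE 0.64, exact two-sided permutation p = 0.4, and 0.5 after adjustment over the 5 pairs).

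Among the elongation factors, the subunits of eEF1B went opposite ways. EEF1B2 measured 13.76, 13.94 and 13.88 in the pull-down and 12.78 and 12.52 in the lysate, so that every pull-down array was above both lysate arrays. The log2 fold change was 1.21 (SE 0.13), with the lowest adjusted p of all factors (0.0103, limma). All 5 of its probes were positive, from 0.62 to 1.39, and 4 of them were called. EEF1D, the delta subunit with its own exchange activity, measured 10.81, 10.75 and 10.89 in the pull-down and 12.00 and 11.60 in the lysate. Its log2 fold change was -0.99 (SE 0.15, limma adjusted p = 0.018), and the other probe gave -1.30 (limma adjusted p = 0.011). EEF1G, the gamma subunit, measured 13.04, 13.36 and 13.46 against 13.16 and 13.17, with overlap and a difference of 0.12 (limma adjusted p = 0.642).

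EEF1A1 and EEF2, the GTPases that these subunits serve and follow, were not called. EEF1A1 measured 14.41, 14.64 and 14.57 in the pull-down and 14.59 and 14.54 in the lysate, close to the brightest probe of each array (14.57 to 14.76). Its 4 probes gave -0.02 to -0.32, the last by a probe of mean 9.07. EEF2, the translocase, measured -0.27 (limma adjusted p = 0.405). EEF1A1, EEF1B2 and EIF4A1 have processed pseudogenes, so their probes may also read related transcripts. The median of the elongation factors was -0.02 and turned to 0.04 after quantile normalization. EEF1B2 was called without any single pull-down array, EEF1D without pull-down replicate 1 or 3, and neither without a lysate array (adjusted p up to 0.0794 and 0.0993).

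**Figure D4:**
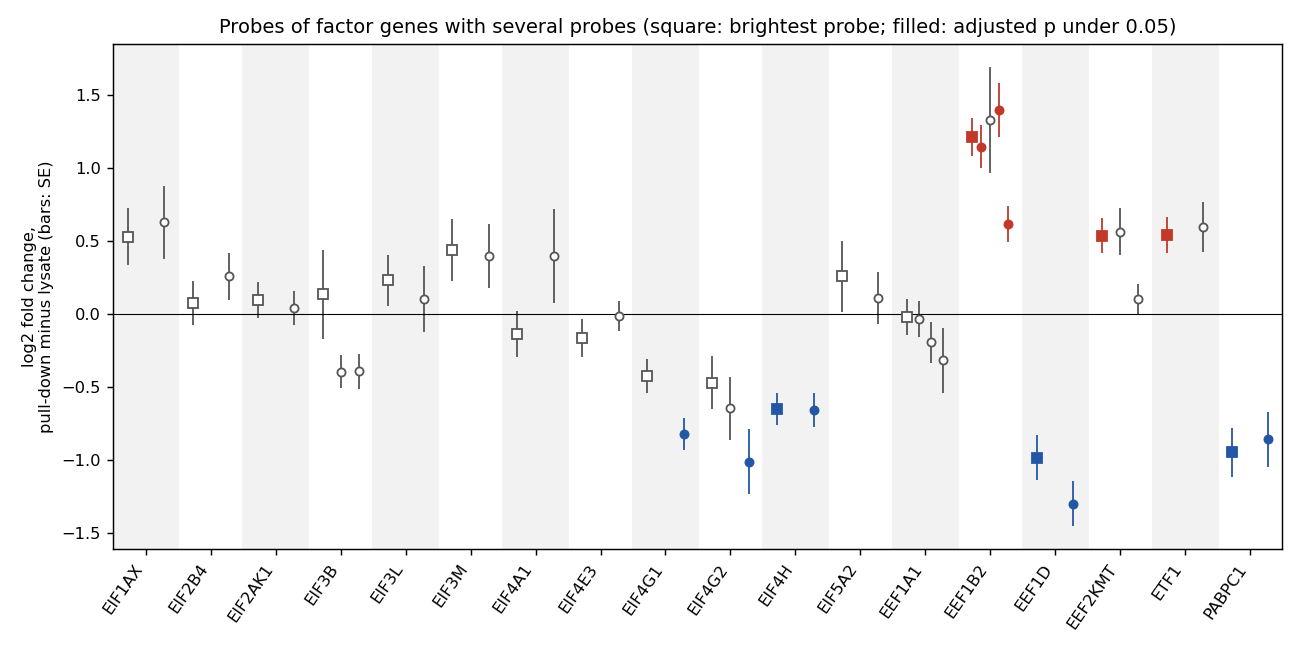
Log2 fold change of the 44 probes of 18 factor genes with several probes (y axis, pull-down minus lysate, bars SE; squares the brightest probe of each gene, circles the others; filled where the adjusted p was under 0.05). Probes of a gene share a sign for 16 of the 18, the exceptions being EIF3B and EIF4A1, and differ in call for 5.

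Enzymes that modify elongation factors had positive differences in 5 of 5, and 1 was called. Of all 9268 named genes, 5069 had a positive difference, 13.8% were called and 7.1% were called higher. Of the brighter named genes 21.2% were called, so 1 call does not set these 5 enzymes apart. Whether their shared sign does was not tested. EEF2KMT, a lysine methyltransferase of eEF2, measured 9.05, 8.89 and 9.12 in the pull-down and 8.52 and 8.45 in the lysate (log2 fold change 0.53, SE 0.12, limma adjusted p = 0.04). This gene was dim. Its call held under median centring, quantile normalization, cyclic loess and the trended robust prior (adjusted p from 0.0376 to 0.0451), but not in other settings. The other probes gave 0.56 and 0.10 (limma adjusted p = 0.0721 and 0.557), the adjusted p was 0.055 without dim probes and 0.0603 with the mean of its probes, and it was 0.056 to 0.181 with any single array left out. EEF1AKMT1, EEF1AKMT2 and EEF1AKMT3, methyltransferases of eEF1A, measured 0.49, 0.14 and 0.50, and EEF2K, the kinase that halts eEF2, 0.24. The median was 0.49, and 0.19 without lysate replicate 2.

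The release factor ETF1 was higher and its partners were not called. ETF1, or eRF1, which reads all stop codons, measured 12.43, 12.27 and 12.49 in the pull-down and 11.81 and 11.90 in the lysate. The log2 fold change was 0.54 (SE 0.12, limma adjusted p = 0.039), with 0.59 by the other probe (limma adjusted p = 0.0742). The call was lost without any single array (adjusted p from 0.0551 to 0.219), after cyclic loess (0.0794), without dim probes (0.0534) and with a trended robust prior (0.0877). GSPT1 and GSPT2, the eRF3 GTPases, measured -0.22 and 0.05 (limma adjusted p = 0.449 and 0.837). They differed by 0.26 (SE 0.30, exact two-sided permutation p = 0.6).

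The poly(A)-binding proteins pointed in different directions. PABPC1, the main cytoplasmic form, measured 12.33, 12.66 and 12.81 in the pull-down and 13.57 and 13.53 in the lysate. All pull-down arrays were below the lysate, with a log2 fold change of -0.95 (SE 0.17, limma adjusted p = 0.0219), and the other probe gave -0.86 (limma adjusted p = 0.0354). PABPC4 measured 11.37, 11.28 and 11.61 against 10.89 and 11.28, where the lowest pull-down array met the higher lysate array, and was not called (log2 fold change 0.33, limma adjusted p = 0.251). PABPC4 exceeded PABPC1 by 1.28 in log2 fold change (SE 0.22, exact two-sided permutation p = 0.1, the smallest possible, and 0.167 after adjustment). The helicase pair EIF4A2 and EIF4A1 differed by 0.48 (SE 0.21) by their brightest probes, with the same p-values. The other EIF4A1 probe gave 0.39, close to EIF4A2 at 0.34, so that difference rests on the brightest EIF4A1 probe. PABPC1 was called without pull-down replicate 1 or 3 and not without any other array (adjusted p up to 0.134).

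Genes that work with the factors but fall outside their symbols were also mixed. Of 20 measured partners and regulators of initiation, 5 were higher and 2 lower in the pull-down (35.0% called, beside 13.8% of all named genes and 21.2% of the brighter ones). MCTS1, which with DENR recycles the small subunit, had the largest difference (log2 fold change 1.63, SE 0.23, limma adjusted p = 0.015). DENR itself gave 0.66 (limma adjusted p = 0.0229), but -1.42 by a dimmer probe. PAIP1 and PAIP2, which bind poly(A)-binding protein and respectively promote and restrain its work, were higher by 0.64 and 0.80 (limma adjusted p = 0.0316 and 0.0352), although PAIP2 gave 0.23 by its other probe. BZW2, a mimic of EIF5, was higher by 0.58 (limma adjusted p = 0.0359). PDCD4, the inhibitor of eIF4A, was lower (-1.08, limma adjusted p = 0.0156), as was MTOR (-0.54, limma adjusted p = 0.0378).

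For elongation, termination and factor modification, 1 of 12 genes was higher and 1 lower. TRMT112, a cofactor of several methyltransferases, including that of eRF1, was higher by 1.42 (SE 0.12, limma adjusted p = 0.00796). NEMF, which marks stalled chains for degradation, was lower (-0.79, limma adjusted p = 0.0201). Over these lists and 8 mitochondrial factors, 6 of 40 genes were higher and 4 lower (10 of 40 called, to be read against the same 13.8% and 21.2%), with a median of 0.03.

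**Figure D5:**
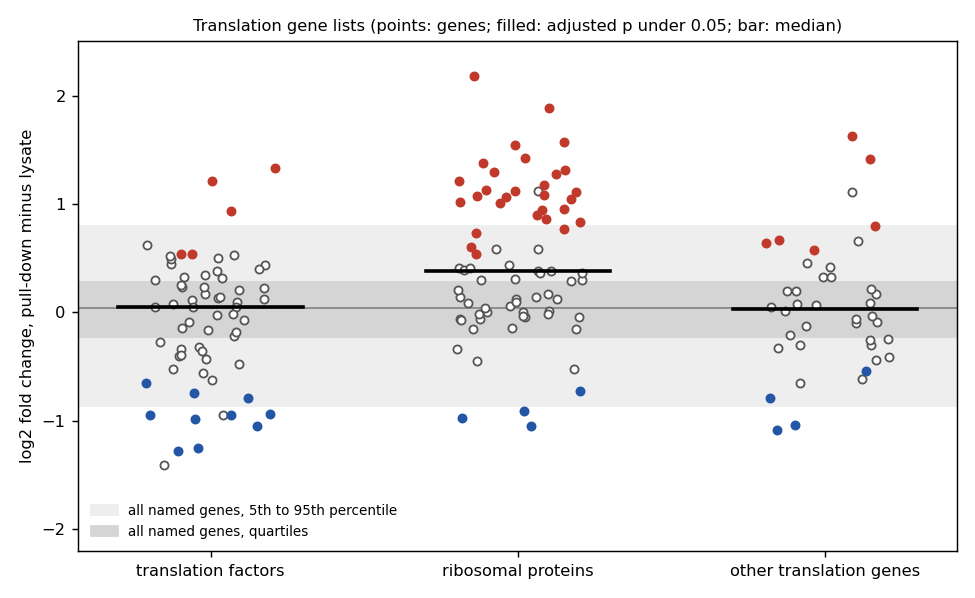
Log2 fold change of translation factors, ribosomal protein genes and other translation genes (y axis, pull-down minus lysate; points genes, filled where the adjusted p was under 0.05; bars medians; grey bands the quartiles and the 5th to 95th percentile of all named genes). The factor median of 0.05 lies at that of all named genes (0.04), and the ribosomal protein median is 0.38.

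As a check of the cell type, 8 of 10 stellate and mesenchymal markers were among the measured genes, and their levels were uneven. VIM and TAGLN were bright on all arrays (14.05 to 14.33 and 12.06 to 13.07), SPARC and COL1A1 varied widely (10.89 to 13.42 and 8.87 to 12.57), and COL1A2 (7.88 to 8.95) and PDGFRB (7.96 to 8.67) were dim. Of the hepatocyte markers ALB lay in the range of the last 2, at 8.17 to 9.23 and SERPINA1 at 7.79 to 7.87, of the immune markers CD68 was measured, at 10.46 to 12.25, and 0 of 3 epithelial and 0 of 3 endothelial markers had a named probe here. Array medians were 9.01 to 9.03. Pull-down arrays correlated with each other at 0.9625 to 0.9854 and with lysate arrays at 0.9016 to 0.9511 across probes, which are not independent replicates.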

How the data were processed

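The values used were the deposited normalized values of 14747 probes on 5 arrays, on a log2 or log2-like scale. Per the labels and the study's methods, the authors exported signals from GenomeStudio and normalized them with lumi. The transform (log2 or variance-stabilizing) is not stated there. A difference of 1 was read as 2-fold. Array number and probe brightness limit the precision. A deposited table of non-normalized signals and detection p-values was not used, since its 10 per-sample columns match no sample label. The extraction text of the control samples repeats the bead step. They are called lysate because the series design and the paper do so.

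Of the probes, 11970 had 1 symbol in the platform annotation at GEO, some of it perhaps outdated, and all 65 genes matched the RefSeq gene table of GRCh38.p14 by gene ID. The annotation matched the rule for 65 symbols, and 0 were left out as pseudogenes or EEF1E1. Where a gene had several probes, the brightest on average was used. The groups were compared by a two-sided test in limma 3.58.1 under R 4.3.3, over all probes and arrays without pairing, after the study's methods (3 residual and 2.75 prior degrees of freedom, median SE 0.15). In simulated data of 14747 probes, 100 were changed by 1 log2 unit and 100 by 2 units. The fit recovered 31 and 87 of them, with 11 false calls. The adjustment depends on the share of changed probes, which was smaller there than the 14.7% of probes called here. Recovery in these data may therefore differ from the simulated one. A gene that was not called may still differ between the groups. Text names each called gene, the extremes of each complex, genes whose probes differ, and paralogue pairs; other genes were added after their values were seen. Members and lists were chosen with earlier results of these data known. Alternatives were 3 further normalizations, a filter on the dimmest 25% of probes, the mean of a gene's probes, a trended robust prior, a replicate block, a 2-fold requirement and each array left out. No background or slide alternative could be run on normalized values. Protein length was not examined, since no protein table was used here.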

Additional observations from a re-analysis of the deposited data

How the results depend on the processing

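The number of factor genes called was 5 higher and 10 lower by limma. It was 3 higher without dim probes, and 2 higher and 3 lower when at least a 2-fold change was also required. With single arrays left out it ranged from 0 to 4 higher and from 0 to 10 lower. Under the 3 other normalizations, the mean of each gene's probes and the trended robust prior, 12 to 15 of the 15 calls were kept. With the replicate number as a block, limma called 0 higher and 0 lower, with a lowest adjusted p of 0.051. Of all probes 215 were called, and 19 of the 65 genes had an unadjusted limma p under 0.05. Without the block 29 of the 65 and 2832 of all 9268 named genes had such an unadjusted p. The count over all named genes was not made with the block, so the 19 cannot be judged against it. The study's methods took each lysate from the cells of a pull-down, but the labels do not say which belong together. Deviations from the group means of same-numbered arrays correlated at 0.04 for replicate 1 and -0.43 for replicate 2, so the numbers were not taken as pairs. Across numbers, the correlation was 0.43 for pull-down replicate 2 with lysate replicate 1 and 0.48 for pull-down replicate 3 with lysate replicate 2. With 2 lysate arrays their deviations mirror each other, so a positive value with 1 of them fixes a negative one with the other, and no pairing chosen from these values was fitted. That fit keeps 1 residual degree of freedom.

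The median over all factors was 0.05 and ranged from -0.041 to 0.059 with single arrays left out. Medians by complex moved by more than the replicate spread for eIF3 (-0.22) and the elongation factor modifiers (0.40) with the mean of each gene's probes, and for the modifiers (0.40) with the replicate block. With single arrays left out the range was -0.057 to 0.28 for eIF2, -0.33 to -0.028 for the eIF2 kinases, -0.17 to -0.067 for eIF3, 0.065 to 0.38 for the eIF4E regulators, -1.04 to -0.56 for EIF5, EIF5B and EIF6, and 0.19 to 0.48 for the modifiers.

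Of the named genes, none that was called changed sign under any alternative run. With single arrays left out this was fixed in advance, since the groups of the called genes did not overlap. Signs turned for small differences that were not called: EIF2AK1 after cyclic loess (-0.029), and EIF3B (-0.22) and EIF4A1 (0.13) with the mean of their probes. With single arrays left out the range was -0.057 to 0.28 for EIF2S1, -0.041 to 0.14 for EIF2S3, -0.17 to 0.29 for EIF3B, -0.34 to 0.056 for EIF4A1, -0.024 to 0.53 for EIF5A2 and -0.030 to 0.10 for GSPT2. The cause was not tested. Brightness limits what dim genes such as EIF3C and EEF2KMT can show, and the top of the scale limits EEF1A1.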

Other observations

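Translation in mitochondria has its own factors, and 1 of 8 measured was called (12.5%, beside 13.8% of all named genes). TSFM, the exchange factor of the mitochondrial elongation factor, was lower in the pull-down, at 8.26 against 9.30 in the lysate (log2 fold change -1.04, SE 0.12, limma adjusted p = 0.0116). TUFM, the elongation factor it serves, measured -0.30 (limma adjusted p = 0.46), and MRRF, the ribosome recycling factor, -0.61 (limma adjusted p = 0.0927). The initiation factor genes MTIF2 and MTIF3 measured 0.32 and 0.05, and the release factor genes MTRF1 and MTRF1L 0.21 and 0.42, none of them called. The median of the 8 genes was 0.06. Of the cytosolic exchange factor genes, EEF1B2 had the opposite sign to TSFM (log2 fold change 1.21). EEF1D had the same sign as TSFM (log2 fold change -0.99).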
